A study of Mus musculus with 12 samples.

Results

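The comparison sets Foxo1 T24P as the only Foxo1 of a lymphoma line against wild-type Foxo1 as the only Foxo1. It takes 6 of the 12 arrays of the series, chosen by the Foxo1 genotype in the labels. On 3 arrays the cells were wt-/mt+, with the wild-type allele knocked out and the T24P allele kept. On the other 3 the cells were wt+/mt-, with the T24P allele knocked out and the wild-type allele kept. Both genotypes were made by CRISPR/Cas9 editing of BL#19, an isogenic murine Burkitt lymphoma line, and no drug or stimulus is named. The remaining 6 arrays hold 3 of wt+/mt+ cells, with both alleles, and 3 of wt-/mt- cells, with neither. T24P stands for a proline in place of the threonine at position 24. Nothing in the labels tells whether the 3 arrays of 1 genotype are independent cultures or clones. The p-values thus rest on the spread among these arrays alone, which could be technical. Where each genotype is 1 edited clone, clone and genotype cannot be told apart.

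FOXO1 is a forkhead transcription factor that drives genes of cell cycle arrest, apoptosis, stress defence and metabolism. When PI3K is active, AKT phosphorylates FOXO1, 14-3-3 proteins bind the phosphorylated protein, and it is held out of the nucleus. Threonine 24 is among the residues that AKT phosphorylates, and mutations at and around it recur in human germinal center lymphomas. In germinal center B cells, FOXO1 is known for its part in the dark zone program. The comparison asks how the transcripts of the same line differ when the only FOXO1 left carries that change.

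Levels are log2 RMA values, so a change of 1 is a 2-fold change, and every change is given as T24P alone minus wild type alone. The cells read as B cells: 6 of 6 B cell markers on the array lay above the array's median on all 6 arrays, among them Ms4a1 at 14.83 ± 0.01 with T24P alone and 14.75 ± 0.05 with wild type alone (SD, n = 3 each), as did 4 of 4 germinal center markers. Of the markers of other cells, 4 of 8 for T cells, 2 of 4 for NK cells, 7 of 9 for myeloid cells, 5 of 6 for stromal cells and 3 of 3 for erythroid cells lay below the median on all 6 arrays. Of 4 plasma cell markers 3 lay above the median on all 6 arrays. These were Jchain (14.48 with T24P alone and 13.67 with wild type alone), Xbp1 (13.51 and 13.25) and Sdc1 (7.79 and 7.75). Prdm1 (4.56 and 4.41) lay below the median on all 6. The array median ran from 6.08 to 6.25 over the 12 arrays. Of the T cell markers, Cd3d, Cd3g, Cd2 and Thy1 lay below it on all 6 arrays, with Cd3d and Cd3g at 5.72 and 4.13 with T24P alone and at 6.06 and 4.05 with wild type alone. Cd3e (6.50 and 6.56), Cd8a (6.68 and 6.77), Cd4 (6.77 and 6.89) and Zap70 (8.58 and 9.08) lay above it on all 6. Of 18194 genes with a probe set, 11458 were kept as bright enough to test.

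The arrays differed in RNA quality. The log2 ratio of the 3' to the 5' actin control probe set, which grows as RNA degrades, was 1.24, 1.06 and 1.15 with T24P alone. With wild type alone it was 2.17, 1.71 and 1.07, and on the 6 arrays of the other genotypes it lay between 1.07 and 1.29. Replicates 1 and 2 of wt+/mt- therefore stood apart from the other 10 arrays, and replicate 3 did not. The difference between the genotypes was -0.50 (exact two-sided permutation p = 0.3, where 0.1 is the smallest that 3 against 3 can give). The spiked controls differed too. With T24P alone bioC and bioD were 0.54 and 0.55 higher and dap, lys, phe and thr between 1.00 and 1.30 lower, without overlap. The part of these controls in the results was not tested. Results are given with and without wt+/mt- replicates 1 and 2 where that bears on them. Leaving both out leaves replicate 3 as the only array of wild type alone. Sizes of change are therefore read there, and counts of genes that passed are not.

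Foxo1 transcript was present with either allele alone. The brightest Foxo1 probe set read 11.57, 11.16 and 11.64 with T24P alone and 12.10, 11.92 and 11.59 with wild type alone. The arrays overlapped, and the change was -0.41 with a standard error (SE) of 0.23 (limma, adjusted p = 0.42). The other bright Foxo1 probe sets gave -0.49 and -0.20. The brightest stood at 11.64 ± 0.08 with both alleles and at 9.99 ± 0.52 with neither (SD, n = 3 each). The labels do not say which part of the gene the edits removed, so transcript left with neither allele does not check them. These arrays do not read the protein, its position in the cell or which allele a transcript came from.

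In the fit that used all 12 arrays to estimate the spread, 10 genes passed at an adjusted p under 0.05, which is 0.0873% of the genes tested. Mgmt, Tmem243, Pik3r6 and Cdc14a were higher with T24P alone and Grk3, Mctp1, 4930447F24Rik, Slc7a4, Cyp2b10 and Atp8b3 were lower (0.0349% and 0.0524% of genes). In none of the 10 did the arrays of both genotypes overlap, which was also so for 31.8% of all genes tested. Their adjusted p-values lay close to the threshold, between 0.039 and 0.044 by limma with Benjamini-Hochberg adjustment. Without wt+/mt- replicates 1 and 2, which leaves replicate 3 as the only array of wild type alone, Mgmt gave 1.32 and Grk3 -1.75. The count of genes that passed was 0 without replicate 2 or 3 of wt+/mt+, replicate 2 of wt-/mt+ or replicate 1 of wt+/mt-, and 232 without replicate 3 of wt-/mt-. All values are of bulk RNA, in which fewer cells with a transcript and less of it per cell cannot be told apart.

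Mgmt, the repair enzyme that takes alkyl groups off guanine, read 10.64, 10.86 and 10.36 with T24P alone and 8.96, 9.46 and 9.30 with wild type alone. It rose by 1.38 (SE 0.16, adjusted p = 0.039 by limma), a 2.60-fold difference. With both alleles Mgmt lay between them at 9.92 ± 0.21, and with neither it was lowest at 7.84 ± 0.03 (SD, n = 3 each). Tmem243, a small transmembrane protein, read 12.13, 12.20 and 11.86 with T24P alone against 10.59, 10.67 and 11.10, a rise of 1.27 (SE 0.19). Its order over the genotypes was that of Mgmt, with 11.75 ± 0.09 with both alleles and 9.66 ± 0.38 with neither.

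Pik3r6, a regulatory subunit of PI3K gamma, read 8.46, 8.72 and 8.78 with T24P alone and 7.68, 7.55 and 7.88 with wild type alone, a rise of 0.95 (SE 0.14). T24P alone differed from the line with both alleles, at 8.67 ± 0.23, by less than the spread of the arrays. Cdc14a, a phosphatase that acts on CDK substrates, read 9.71, 9.77 and 9.72 against 9.12, 9.04 and 9.17, a rise of 0.63 (SE 0.08). The Cdc14a rise was seen by 1 of 2 bright probe sets, and the other gave -0.03.

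Grk3, a kinase that desensitises G protein-coupled receptors including chemokine receptors, read 7.21, 7.45 and 7.68 with T24P alone and 9.97, 9.23 and 9.20 with wild type alone. It fell by 2.02 (SE 0.26, adjusted p = 0.040 by limma), a 4.06-fold difference, and its other bright probe set gave -2.87. Wild type alone was the genotype that stood apart, since Grk3 was at 7.45 ± 0.40 with both alleles and at 6.77 ± 0.35 with neither. Mctp1, a membrane protein with calcium-binding C2 domains, had the same shape. It read 5.91, 5.77 and 5.54 against 7.76, 7.77 and 7.27 and fell by 1.86 (SE 0.26), with 5.69 ± 0.05 with both alleles and 5.95 ± 0.64 with neither. The T24P readings of Mctp1 lie below the array median, so the size of its fall rests on dim signal.

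The other falls were smaller. Slc7a4, a member of the cationic amino acid transporter family, fell by 0.75 (SE 0.11), from 7.83 ± 0.14 with wild type alone to 7.08 ± 0.08. Cyp2b10, a cytochrome P450, fell by 0.72 (SE 0.11), and Atp8b3, a lipid-flipping ATPase, by 0.65 (SE 0.09). The uncharacterised 4930447F24Rik fell by 0.82 (SE 0.12). The T24P means of Cyp2b10 and 4930447F24Rik, 6.10 and 6.04, also lie below the array median, so their sizes rest on dim signal. These genes and Mctp1 were above the median on 6, 6 and 4 of the 12 arrays, and so were kept through the genotypes in which they are high. In Slc7a4, Cyp2b10, Atp8b3 and 4930447F24Rik wt-/mt- lay nearer to wild type alone than to T24P alone, and wt+/mt+ lay nearer to T24P alone.

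**Figure D1:**
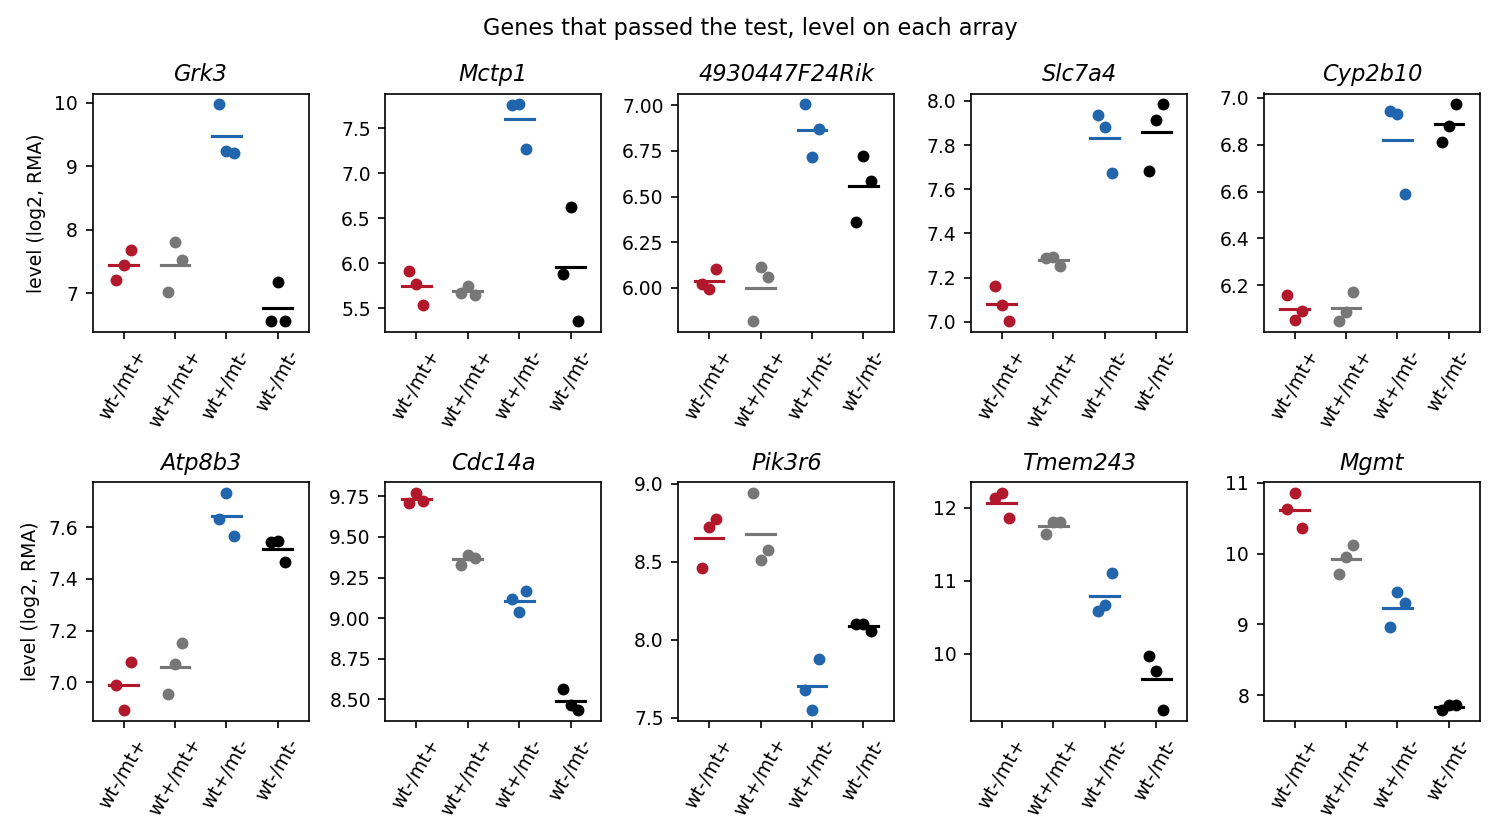
Level (log2, RMA) of the 10 genes that passed on each array, 1 panel per gene with its own y axis that does not start at 0, with genotypes on the x axis, points for arrays and a line for the mean of 3. T24P alone (wt-/mt+, red) and wild type alone (wt+/mt-, blue) do not overlap in any panel, and Mgmt, Tmem243 and Cdc14a step down from T24P alone through both alleles (grey) and wild type alone to neither (black).

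The spread within a genotype was unequal, and the count of genes moved with how it was estimated. The median SD over genes was 0.11 with T24P alone and 0.13 with wild type alone, but 0.26 with neither allele. With only the 6 compared arrays in the fit, 393 genes passed (3.43% of those tested), 122 higher with T24P alone (1.06%) and 271 lower (2.37%). With 1 weight per genotype 835 passed (7.29%), 337 higher (2.94%) and 498 lower (4.35%), and 329 genes passed in both fits. All 10 genes named above were among the 393. That count hung on single arrays. It was 5, 1 and 15 without replicates 1, 2 and 3 of wt-/mt+, 43 and 1 without replicates 1 and 2 of wt+/mt-, and 1741 without replicate 3 of wt+/mt-. Without both wt+/mt- arrays of high actin ratio, only replicate 3 of wild type alone is left. All 393 genes then kept their sign, as did 77.8% of all genes. The call of the 393 used the arrays left here too, so these shares are not like for like. The median ratio of the change of the 393 to that with all 6 arrays was 0.87. The smallest change among the 393 was 0.38 and 58 changed by more than 1, 20 higher and 38 lower. The median change of a chromosome lay between -0.05 and 0.08 and 1.61% to 4.35% of its genes passed over 20 chromosomes.

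From here on SEs are those of the fit on 6 arrays. The largest fall among the genes that passed in it was that of Cdyl2, a chromodomain protein. It fell by 4.00 (SE 0.72), from 10.49, 10.43 and 9.06 with wild type alone to 5.43, 4.80 and 7.76. The T24P arrays were far apart for this gene, with replicate 3 well above the others, and its other bright probe set gave -1.18. On T24P replicates 1 and 2 Cdyl2 lies below the array median, so the size of its fall rests on dim signal. Nmrk2, a nicotinamide riboside kinase, fell by 2.66 (SE 0.25) and Selenop, a secreted selenium carrier, by 2.46 (SE 0.45), from 12.11, 11.05 and 11.85 to 9.85, 8.14 and 9.64. Il1r1, the receptor for interleukin 1, read 6.98, 7.12 and 6.89 with T24P alone against 10.29, 7.96 and 9.73, and fell by 2.33 (SE 0.50). Nr4a3, an orphan nuclear receptor induced by antigen receptor signals, fell by 2.14 (SE 0.29), with 1 other bright probe set at -0.21. Dach2 fell by 2.11 and Anxa10 fell by 1.86 (other bright probe sets -1.97 and -1.05), with Srgap3, Serpinb6b and Klk4 between them. Adjusted p-values of these genes with 6 arrays lay between 0.020 and 0.049 by limma, and with all 12 arrays between 0.057 and 0.17.

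The largest rises were smaller. Hhat, the acyltransferase that palmitoylates Hedgehog proteins, rose by 2.38 (SE 0.45), from 7.73, 6.64 and 7.98 with wild type alone to 10.31, 8.88 and 10.32. Gimap1, a GTPase of lymphocyte survival, rose by 2.14 (SE 0.38), from 6.31, 7.01 and 5.91 to 7.72, 9.14 and 8.80. Il10, the anti-inflammatory cytokine, read 10.83, 10.69 and 9.75 against 8.91, 8.60 and 9.33, a rise of 1.48 (SE 0.29). Mcoln2, a lysosomal cation channel, rose by 1.55 (SE 0.28), or 0.88 without wt+/mt- replicates 1 and 2, and the axonemal dynein gene Dnaic2 by 1.54 (SE 0.29). Pvr, a nectin-like receptor, rose by 1.63 (SE 0.18) in its brightest probe set while its 3 other bright probe sets gave -0.38 to -0.13. Map3k12 rose by 1.39 (SE 0.23), with 0.82 without those replicates and 2 other bright probe sets at -0.23 and 0.04. Their adjusted p-values with 6 arrays were 0.022 to 0.044 by limma, and with all 12 arrays 0.057 to 0.32.

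The genes that passed with 6 arrays were then compared between both genotypes that took no part in that fit. Of the 122 genes higher with T24P alone, 113 (92.6%) had a lower mean with neither allele than with both, which was so for 44.6% of all genes tested. Their median difference, neither minus both, was -0.71, against 0.05 over all genes. Of the 271 genes lower with T24P alone, 214 (79.0%) had a higher mean with neither allele than with both, against 55.4% of all genes, with a median difference of 0.41. The 4 means ran in the order T24P alone, both, wild type alone, neither in 63 of the 122 (51.6%) and in 9.74% of all genes. The opposite order held in 70 of the 271 (25.8%) and in 8.06% of all genes. These orders use the compared genotypes too. The call fixed which of T24P alone and wild type alone was higher in the 122 and the 271. It did not in all genes, so the shares of the orders are not like for like. Across all 11458 genes Pearson's r between both differences was -0.28, a description with no p, since genes are not replicates and share their arrays.

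The line with both alleles lay nearer to T24P alone. Relative to the line with both alleles, the median of the 122 genes was 0.20 with T24P alone and -0.45 with wild type alone, and that of the 271 genes was -0.10 and 0.52. The mean with both alleles was nearer to T24P alone than to wild type alone in 93 of the 122 (76.2%) and in 247 of the 271 (91.1%), against 62.2% of all genes. The 271 genes were dimmer than the rest, with a median level of 8.00 against 8.93, and 12.2% of them had a T24P mean below the array median, against 4.09% of all genes. The spiked controls bioC and bioD also split by the mt allele, at 11.71 and 13.99 with both alleles and 10.98 and 13.20 with neither. In the titles, all arrays of cells with the mt allele are numbered before all arrays of cells without it. T24P alone against wild type alone and both alleles against neither cross this same divide. The mt allele and the array number thus cannot be told apart in the shared pattern. The part of the controls and of the array order in that pattern was not tested.

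**Figure D2:**
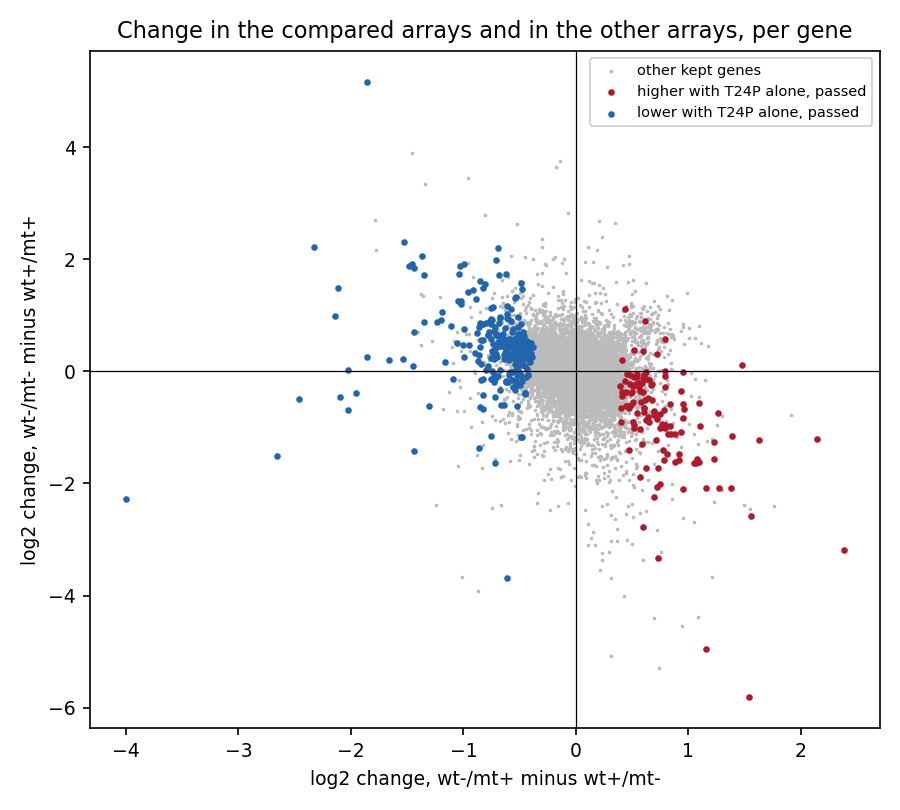
Each point is 1 of 11458 genes, with the log2 change of T24P alone minus wild type alone (wt-/mt+ minus wt+/mt-) on the x axis and that of neither minus both alleles (wt-/mt- minus wt+/mt+) on the y axis. Of the 122 genes higher with T24P alone (red) 113 lie below 0 on the y axis, and of the 271 lower ones (blue) 214 lie above it.

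The canonical FOXO targets went both ways. Of 36 kept members of the list none passed with 12 arrays (0.0873% of all genes did, and 1881 genes had an unadjusted p under 0.05), and 7 passed with 6 arrays (3.43% of all genes), 5 higher and 2 lower with T24P alone. Their median change was 0.07, against 0.00 over all genes, and 22 of the 36 were above 0. By array, both single-allele genotypes lay near the line with both alleles: relative to it, the list's median was -0.02, 0.04 and -0.12 on the T24P arrays, -0.11, -0.08 and -0.12 on the wild-type arrays, and -0.40, -0.38 and -0.84 on the arrays with neither allele.

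Among targets that feed back on insulin and PI3K signalling, 2 of 10 passed with 6 arrays (3.43% of all genes did), in opposite directions. Irs2, an adaptor of the insulin receptor, read 10.47, 10.07 and 10.32 with T24P alone and 10.97, 10.99 and 11.03 with wild type alone, a fall of 0.72 (SE 0.11). Pik3ca, a catalytic subunit of PI3K, rose by 0.41 (SE 0.09), with its other bright probe sets between 0.0043 and 0.26. Pik3ip1, an inhibitor of PI3K, and Sesn1 and Sesn3, stress sensors that restrain mTORC1, gave 0.23, 0.25 and 0.29 and did not pass.

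Among targets of cell cycle arrest, 3 of 8 passed with 6 arrays (3.43% of all genes did). Cdkn2d, an inhibitor of CDK4 and CDK6, read 10.77, 10.74 and 10.70 with T24P alone and 9.67, 9.89 and 10.27 with wild type alone, a rise of 0.79 (SE 0.15). Gadd45a, a stress-induced growth arrest gene, rose by 0.68 (SE 0.12), and Gadd45b gave 0.48 (SE 0.13) without passing (adjusted p = 0.078 with 6 arrays by limma). Cdkn1b, which encodes the CDK inhibitor p27 and is a widely used FOXO target, went the other way. It read 8.98, 8.68 and 8.61 against 9.48, 9.58 and 9.55, a fall of 0.78 (SE 0.11), and its other bright probe set gave -0.44. The line with both alleles stood at 9.53 for Cdkn1b, beside wild type alone, and the arrays with neither were wide apart at 9.13, 11.41 and 10.00.

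Among the 7 targets of apoptosis only Trp53inp1, a p53-induced nuclear protein, passed with 6 arrays (3.43% of all genes did). It read 12.67, 12.49 and 12.34 against 11.88, 11.81 and 12.03, a rise of 0.59 (SE 0.11), with its other bright probe set at 0.25. Bcl2l11, which encodes the BH3-only killer BIM, read 11.46, 11.61 and 11.45 against 11.78, 11.55 and 11.35. Those arrays overlapped, and the change of -0.05 turned sign under other settings. Of 11 targets of stress and metabolism, Ulk1, the kinase that starts autophagy, rose by 0.65 (SE 0.12), from 8.67, 8.91 and 9.12 to 9.55, 9.60 and 9.49, with its other bright probe set at 0.14. Map1lc3b, a component of the autophagosome, gave 0.41 (SE 0.11) and Klf2 -0.61 (SE 0.21), and neither passed with 6 arrays. Without wt+/mt- replicates 1 and 2 the changes of Cdkn2d, Gadd45a, Trp53inp1 and Ulk1 were 0.47, 0.47, 0.47 and 0.43, and those of Cdkn1b and Irs2 were -0.79 and -0.75.

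**Figure D3:**
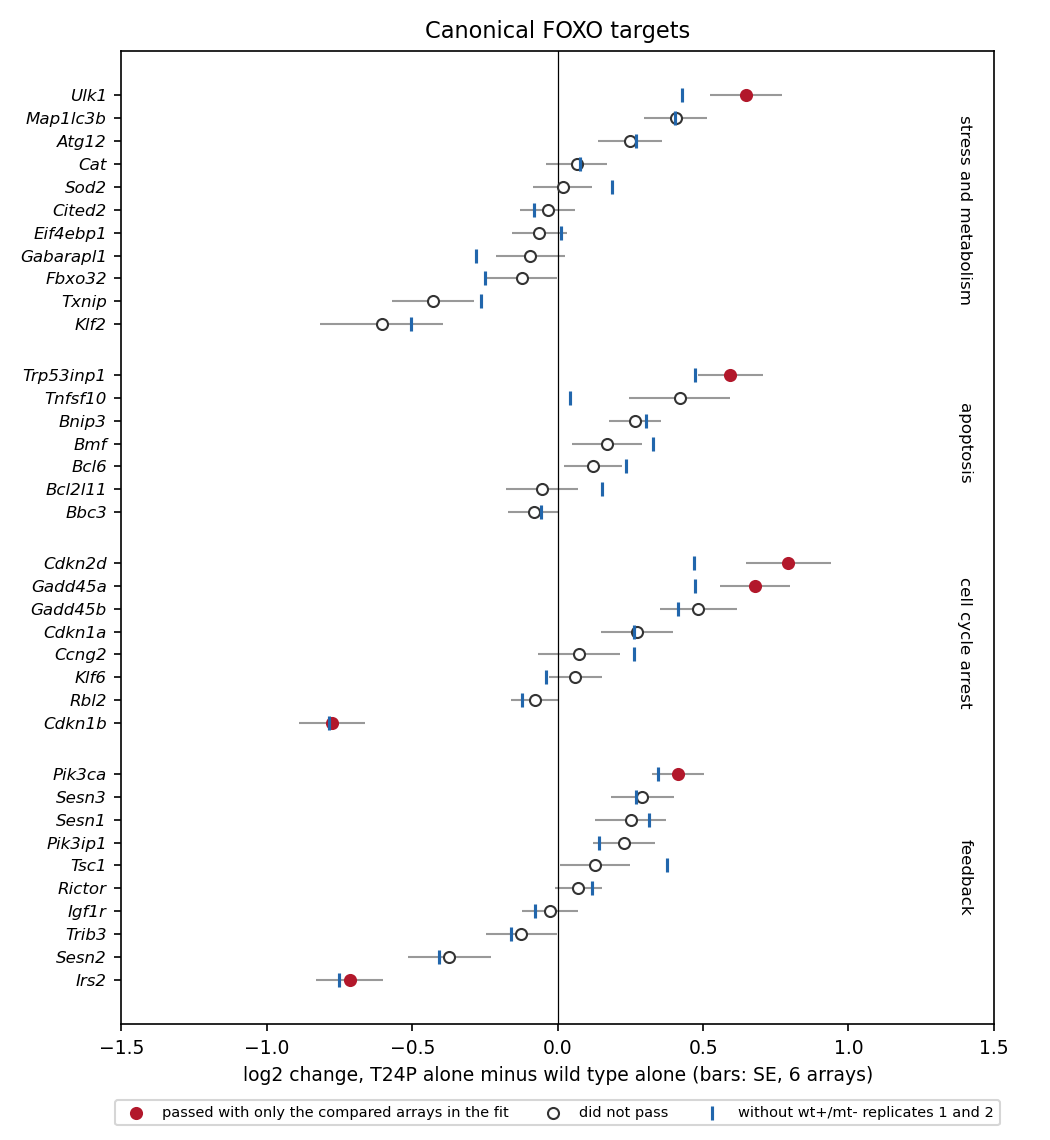
Log2 change of T24P alone minus wild type alone (x axis) for the 36 kept canonical FOXO targets (y axis, grouped by role), with bars of 1 SE from the fit on 6 arrays. Filled points are the 7 genes that passed with only the 6 compared arrays in the fit, from -0.78 for Cdkn1b to 0.79 for Cdkn2d, and blue marks give the change without wt+/mt- replicates 1 and 2.

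Of 13 kept Foxo1 targets of lymphocytes, 1 passed with 12 arrays, Grk3, and with 6 arrays Btla passed as well. Of all genes 0.0873% passed with 12 arrays and 3.43% with 6. Btla, an inhibitory receptor of B and T cells, read 11.73, 11.40 and 11.28 with T24P alone and 10.13, 10.19 and 10.88 with wild type alone, a rise of 1.07 (SE 0.21), or 0.59 without wt+/mt- replicates 1 and 2. The median of the list was -0.21. None of the 4 kept homing genes passed in either fit, and 1 of them, Cxcr4, had a change above 0. Ccr7, which guides cells to lymphoid tissue, gave -1.03 (SE 0.40), S1pr1, the exit receptor for sphingosine phosphate, -0.88 (SE 0.20), and Klf2, the factor that drives S1pr1, -0.61 (SE 0.21). Ccr7 lay at or below the array median on all of the 6 arrays but replicate 1 of wild type alone, at 7.66. For S1pr1 the arrays did not overlap, with 7.84, 7.59 and 7.50 against 8.67, 8.85 and 8.04, and its adjusted p with 6 arrays was 0.056 by limma. Without wt+/mt- replicates 1 and 2, Ccr7 and S1pr1 gave -0.46 and -0.40.

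Cxcr4, the dark zone homing receptor, read 12.17, 11.88 and 11.47 with T24P alone and 11.41, 11.44 and 11.72 with wild type alone, so the arrays overlapped (0.31, SE 0.18). Cxcr4 stood at 12.09 in the line with both alleles and at 7.78, 7.75 and 9.69 on the arrays with neither. Bach2, a repressor of plasma cell fate, was 11.74, 11.93 and 11.67 against 11.12, 10.76 and 11.38, a change of 0.70 (SE 0.16, adjusted p = 0.054 with 6 arrays by limma), with its other bright probe sets at 0.46 and 0.47. With neither allele Bach2 was at 7.92, 8.03 and 5.83. For both genes the 3 arrays with neither allele lay below all 6 single-allele arrays.

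Of 12 kept forkhead genes, Foxo1 among them, none passed with 12 or with 6 arrays. Foxo4 gave -0.35 (SE 0.12) and Foxo3 -0.04 (SE 0.15), and the largest change was that of Foxj2, at -0.72 (SE 0.17). Of 30 kept genes that act on FOXO1 itself 2 passed with 6 arrays (3.43% of all genes did), and the list's median was 0.06. Akt1, the kinase that phosphorylates FOXO1, read 9.07, 8.98 and 8.92 with T24P alone and 9.39, 9.40 and 9.46 with wild type alone, a fall of 0.43 (SE 0.09), with its other bright probe sets between -0.29 and -0.06. Pik3cd, the PI3K catalytic subunit of leukocytes, read 14.18, 14.33 and 14.43 against 13.87, 13.80 and 13.47, a rise of 0.60 (SE 0.13), with its other bright probe sets between 0.09 and 0.40. None of the 8 kept 14-3-3 and nuclear export genes passed in either fit, with Ywhae at -0.41 (SE 0.16) and Xpo1 at 0.18 (SE 0.10). Skp2, which targets FOXO1 for degradation, gave 0.62 (SE 0.18) and 0.22 without wt+/mt- replicates 1 and 2.

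The FOXO core motif was found before few of the genes that passed. TGTTTAC and TGTTTAT were searched on both strands, the other strand reading GTAAACA and ATAAACA, in the 250 bases before the RefSeq starts on GRCm38.p6. They were found for 8 of 94 genes higher with T24P alone in the 6-array fit (8.51%), 10 of 220 lower genes (4.55%), none of the 7 matched genes of the 10 that passed with 12 arrays, 5.24% of the kept genes and 8.06% of all genes with a promoter in the table. A match of letters is not a bound site. Windows of 3 of these genes are shown as examples that lie upstream of the whole gene, with the motif in capitals, read 5′ to 3′ on the gene's strand. Akt1 was lower with T24P alone, while Pdlim3, a muscle LIM protein, rose by 1.10 (SE 0.18), and Cxcr3, a chemokine receptor, rose by 0.75 (SE 0.13), from 7.54, 7.04 and 7.22 to 8.01, 7.94 and 8.09. The Akt1 window is chr12:112674885-112675134 on the minus strand, the Pdlim3 window chr8:45885237-45885486 on the plus strand and the Cxcr3 window chrX:101734148-101734397 on the minus strand. The motifs begin 161, 229 and 200 bases before the start.
Akt1: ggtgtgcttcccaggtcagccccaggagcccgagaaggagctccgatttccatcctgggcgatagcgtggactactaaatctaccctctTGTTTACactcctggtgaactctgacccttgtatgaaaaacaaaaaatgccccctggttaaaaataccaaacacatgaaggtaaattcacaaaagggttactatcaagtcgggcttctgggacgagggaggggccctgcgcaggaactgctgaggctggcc
Pdlim3: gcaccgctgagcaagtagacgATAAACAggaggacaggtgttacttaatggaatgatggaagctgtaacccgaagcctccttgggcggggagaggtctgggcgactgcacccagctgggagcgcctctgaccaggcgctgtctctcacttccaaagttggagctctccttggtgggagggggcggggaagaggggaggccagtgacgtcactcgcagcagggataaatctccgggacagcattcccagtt
Cxcr3: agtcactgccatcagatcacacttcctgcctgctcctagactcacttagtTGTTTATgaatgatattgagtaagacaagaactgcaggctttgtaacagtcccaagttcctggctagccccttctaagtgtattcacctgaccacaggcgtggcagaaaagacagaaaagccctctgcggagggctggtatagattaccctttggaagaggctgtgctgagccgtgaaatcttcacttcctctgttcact

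Proliferation genes had positive changes that were smaller without wt+/mt- replicates 1 and 2, the arrays of high actin ratio. Of 23 kept S phase genes all 23 had a change above 0, with a median of 0.65, while 5730 of all 11458 genes were above 0. None of the 23 passed with 12 arrays and 1 with 6 arrays, against 1.06% of all genes that passed higher in that fit. It was Cdt1, a licensing factor of replication, which rose by 0.62 (SE 0.13), with 0.35 in its other bright probe set. With 1 weight per genotype 5 of the 23 passed, all higher, against 2.94% of all genes in that direction. Of 26 kept G2/M genes all 26 were above 0, with a median of 0.58, and none passed in either fit. The arrays of wild type alone were split: relative to the line with both alleles the S phase median was -0.55 and -0.41 on replicates 1 and 2, those of high actin ratio, and 0.21 on replicate 3, against 0.40, 0.15 and 0.64 with T24P alone. The G2/M median was -0.24, -0.37 and 0.54 against 0.53, 0.36 and 0.74. Without replicates 1 and 2 of wt+/mt- the medians of the changes were 0.22 and 0.04. With the actin ratio as a covariate over 12 arrays they were 0.36 and 0.23. The part of RNA quality in these changes was not tested.

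Pcna, the sliding clamp of DNA polymerase, read 13.42, 13.29 and 13.77 with T24P alone and 11.83, 12.33 and 13.30 with wild type alone (change 1.01, SE 0.33). Rfc3, a subunit of the clamp loader, read 9.98, 9.73 and 9.84 against 8.13, 8.52 and 9.46 (1.15, SE 0.29). In both genes replicate 3 of wild type alone lay close to the T24P arrays. Cdk1, the mitotic kinase, gave 0.82 (SE 0.34) and -0.08 without those replicates. Immediate early and heat shock genes had a median change of -0.36 over 20 genes and -0.13 without those replicates, and none passed in either fit. Egr1, a factor induced within minutes of a stimulus, was at 11.70, 11.78 and 10.22 with wild type alone against 10.49, 9.46 and 10.36.

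**Figure D4:**
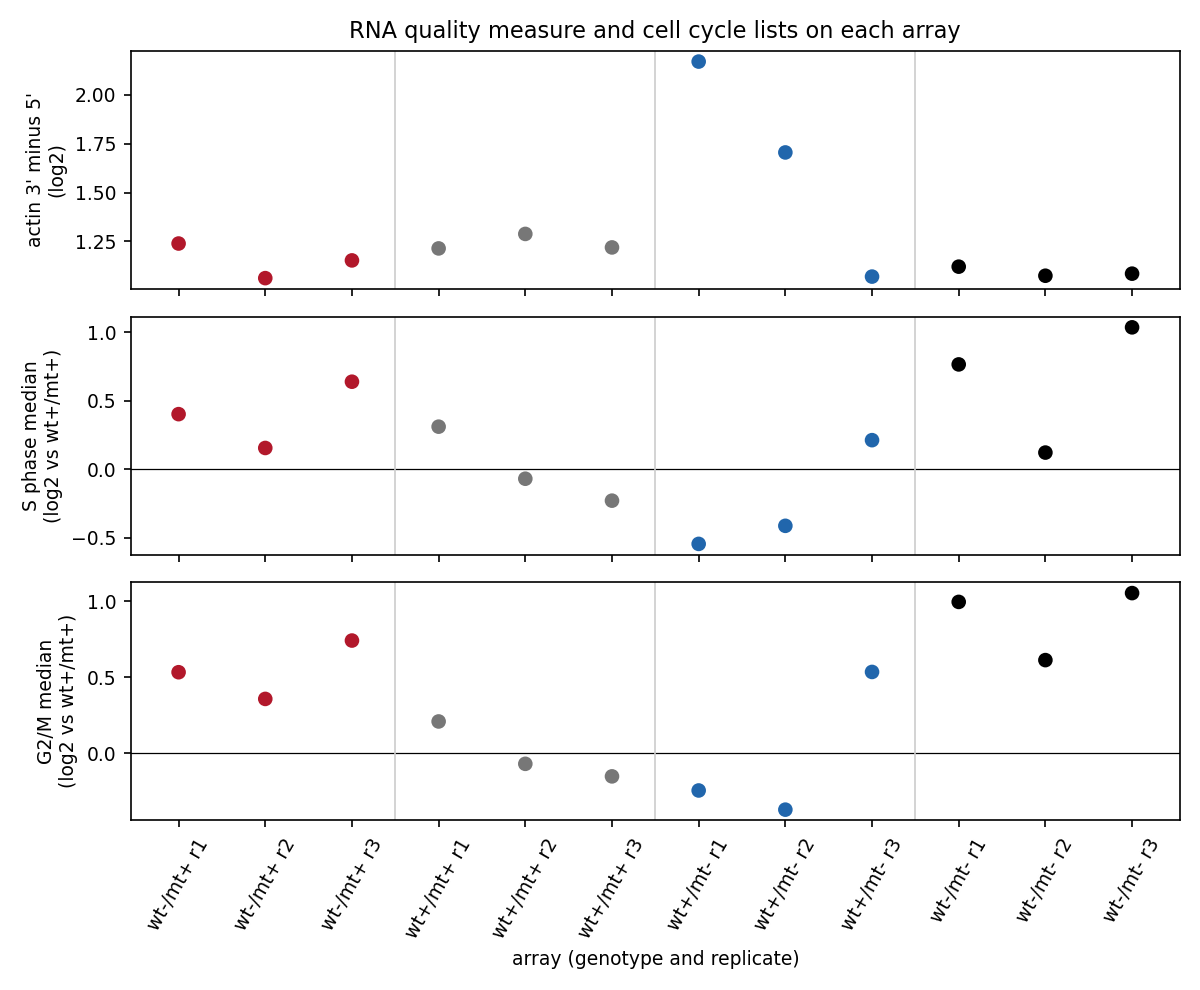
The 12 arrays on the x axis, by genotype and replicate (r), with the log2 ratio of 3' to 5' actin control probe sets (top) and the median over 23 S phase genes (middle) and 26 G2/M genes (bottom) relative to the mean of the line with both alleles, in log2 units. Replicates 1 and 2 of wt+/mt- have the highest actin ratios (2.17 and 1.71) and the lowest medians of S phase genes (-0.55 and -0.41).

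Of 21 kept G1 regulators 3 passed with 6 arrays (3.43% of all genes did), Cdkn2d higher and Cdkn1b and Ccnd2 lower. Ccnd2, the D-type cyclin of the list that passed, read 6.39, 5.82 and 5.73 with T24P alone and 7.43, 7.56 and 7.00 with wild type alone, a fall of 1.35 (SE 0.20), with its other bright probe sets at -0.61 and -0.42. On T24P replicates 2 and 3 Ccnd2 lies below the array median, so the size of its fall rests on dim signal. It was at 6.65 with both alleles, and the arrays with neither read 6.01, 12.23 and 6.89, with replicate 2 far above the other two.

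None of the 12 kept dark zone genes passed in either fit, and their median of 0.42 was 0.10 without wt+/mt- replicates 1 and 2. Of 15 light zone genes Ccnd2 and Cd44 passed with 6 arrays (3.43% of all genes did), both lower, and the list's median was -0.15. With 1 weight per genotype no light zone gene passed, against 7.29% of all genes. Of 15 germinal center identity genes Mybl1 and Elf1 passed, both higher, beside the same share of all genes. Mybl1, a transcription factor of proliferating germinal center cells, read 11.48, 11.19 and 11.04 with T24P alone and 9.77, 10.01 and 10.49 with wild type alone, a rise of 1.15 (SE 0.19), or 0.75 without wt+/mt- replicates 1 and 2, and its other bright probe set gave 1.65. Elf1, an ETS factor, rose by 0.47 (SE 0.09), though its other bright probe set gave -0.02. None of 23 B cell identity genes and none of 12 plasma cell genes passed with 12 or with 6 arrays.

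Genes of trafficking and adhesion that passed with 6 arrays were all lower with T24P alone, 4 of 25, against 2.37% of all genes in that direction. Besides Grk3 these were Arhgef1, an exchange factor that links G13-coupled receptors to RhoA, which read 9.29, 9.40 and 9.23 against 10.31, 9.95 and 9.89 and fell by 0.75 (SE 0.13), Cd44, the hyaluronan receptor, which fell by 0.75 (SE 0.11), and Itgb1, the beta 1 integrin, which fell by 0.56 (SE 0.12). Other bright probe sets gave -0.23 for Arhgef1, -0.96 for Cd44 and -0.19 and -0.09 for Itgb1. The median of the list was -0.12. Icam2, a ligand of lymphocyte integrins, had the largest change upward, 1.30 (SE 0.33), without passing with 6 arrays (adjusted p = 0.068 by limma), and gave 0.67 without wt+/mt- replicates 1 and 2. With 1 weight per genotype Icam2 passed (adjusted p = 0.021 by limma). In that fit 2 genes of the list passed higher (2.94% of all genes did) and 4 lower (4.35%).

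In B cell receptor and PI3K signalling, 2 of 23 genes passed with 6 arrays (3.43% of all genes did), Btla higher and Spry2 lower. Spry2, an inhibitor of receptor tyrosine kinase signalling, read 8.13, 8.22 and 8.31 with T24P alone and 9.23, 9.37 and 8.65 with wild type alone, a fall of 0.86 (SE 0.18), or -0.43 without wt+/mt- replicates 1 and 2, and its other bright probe set gave -0.11. None of the 12 receptor and kinase members passed.

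Of 16 kept glycolysis genes 3 passed with 6 arrays, all lower with T24P alone, a direction in which 2.37% of all genes passed. Pfkl, a subunit of phosphofructokinase, read 8.92, 8.93 and 8.75 against 9.43, 9.62 and 9.60 and fell by 0.68 (SE 0.10). Slc2a3, the glucose transporter GLUT3, fell by 0.57 (SE 0.09), and Pkm, pyruvate kinase, read 12.19, 12.21 and 12.07 against 12.57, 12.67 and 12.76 and fell by 0.51 (SE 0.09). Other bright probe sets gave -0.54 and -0.02 for Pfkl and -0.22 for Slc2a3. In all 3 the line with both alleles (8.88, 10.88 and 12.24) lay beside T24P alone. With neither allele Pfkl read 9.45, 10.17 and 9.62, Pkm 12.58, 13.15 and 12.75, and Slc2a3 10.65, 11.89 and 11.51, so the arrays of Slc2a3 were spread over a wider range than the fall itself. The median of the list was -0.18. Without wt+/mt- replicates 1 and 2 the changes of Pfkl, Slc2a3 and Pkm were -0.73, -0.49 and -0.61. Cpt1a, which lets fatty acids into mitochondria for oxidation and belongs to none of the lists, rose by 1.05 (SE 0.16), from 9.81, 10.06 and 10.46 to 11.14, 11.26 and 11.08, with its other bright probe sets at 0.77 and 1.43 and a change of 0.70 without those replicates. No oxidative phosphorylation gene of 22 and no cholesterol synthesis gene of 18 passed in either fit.

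Of 28 genes of mTORC1, lysosome and autophagy, Ulk1 was higher and Ctsb and Atg7 were lower with 6 arrays, beside 3.43% of all genes. Ctsb, the lysosomal protease cathepsin B, fell by 0.53 (SE 0.09), and Atg7, an enzyme of autophagosome formation, by 0.50 (SE 0.10). Their other bright probe sets gave -0.42 to -0.0077 and -0.24 to -0.17. Of 17 p53 targets 2 passed with 6 arrays, Gadd45a and Trp53inp1, both higher, against 1.06% of all genes in that direction. Both are also in the list of canonical FOXO targets. Of 32 genes of the MYC network and ribosome biogenesis only Rrp9, a component of the U3 small nucleolar particle, passed (3.43% of all genes did). Rrp9 fell by 0.42 (SE 0.09). No gene of the early B cell (3) and housekeeping (10) lists, the cytosolic ribosome (12), amino acid stress (18), the BCL2 family (12), hypermutation, switching and repair (24) or NF-kB targets (12) passed with 12 or with 6 arrays.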

How the data were processed

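Per the labels' protocols, total RNA from a Qiagen column kit went through an Affymetrix 3' IVT reaction with biotin as the label, 1 array per sample. The authors deposited log2 values of probe sets, summarised by RMA (version not given) according to the submitters' processing notes. The log base was taken from RMA's usual output and the range of 3.09 to 15.57. RMA's normalization across arrays takes out shifts that most genes of 1 array have in common. The number of arrays limits the precision. Any scanner files were not used here.

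GEO's platform annotation gave 1 gene to 34958 of 45101 probe sets, several to 932 and none to 9211; 161 symbols are as the array lists them. Each gene took its brightest probe set, and genes above the array median in at least 3 arrays were kept. "Other bright probe sets" are further probe sets of a gene past that filter. The main test was limma 3.58.1 (R 4.3.3), fitted over all 12 arrays with a mean for each genotype. A gene passed when its p, adjusted by Benjamini-Hochberg across every kept gene, was under 0.05. SEs are limma's, from that fit up to the 10 genes it called and from the fit on 6 arrays after them. No pair of arrays held identical values.

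The comparison, the 35 gene lists and the alternatives were chosen with earlier results of these data known. Named genes were Foxo1, up to 15 rises and 15 falls among genes that passed without overlap, up to 4 members per list that passed or had the largest changes, and any FOXO target, forkhead gene or regulator of FOXO1. The largest changes of the fit on 6 arrays, its members of lists outside that rule, the genes with promoters shown, Cpt1a, and the leave-out fits on 6 arrays were chosen after their values were seen. Promoter windows are from RefSeq on GRCm38.p6.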

Additional observations from a re-analysis of the deposited data

How the results depend on the processing

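No paired analysis was possible because the numbers in the array titles run on from 1 to 12 and no number is shared between genotypes. The count of genes that passed (10, with 4 higher and 6 lower) depended on the fit, by limma in each case. It was 393 (122 and 271) with only the compared genotypes and 835 (337 and 498) with 1 weight per genotype. Genes named above that passed with 6 arrays but not with those weights included Cdkn1b, Ccnd2, Cd44 and Eomes. Their adjusted p-values with the weights were 0.093, 0.12, 0.066 and 0.45 by limma. S1pr1 was among those that passed with the weights (0.019) but not with 6 arrays. The count was 21 (7 and 14) with arrays centred on their medians and 14 (7 and 7) after quantile normalization. Centring per chromosome gave 4 (1 and 3) and the mean over probe sets 1 (1 and 0). Testing every probe set gave 21 genes (11 and 10). With the actin ratio as a covariate it was 0 (789 genes at an unadjusted p under 0.05). Without both wt+/mt- arrays of high actin ratio only replicate 3 of that genotype is left. The count printed below for that setting in the fit on 6 arrays rests on that 1 array, so nothing is concluded from it. For the fit on 12 arrays no such count is given. Without 1 array the count ran from 0 to 232, the higher genes from 0 to 80 and the lower from 0 to 152. It was 0 without replicate 2 or 3 of wt+/mt+, replicate 2 of wt-/mt+ or replicate 1 of wt+/mt- (1644, 1670, 1345 and 1192 genes at an unadjusted p under 0.05). It was highest without replicate 3 of wt-/mt-. In the fit on 6 arrays the 393 became 15 without both wt+/mt- arrays of high actin ratio and 30 with that ratio in the model, and 1 to 1741 without 1 array. The cause of these shifts was not tested. None of the 10 genes changed sign under any setting, and Mgmt passed in the most of them, 16 of 23. Among the genes whose change is given in the text, 3 changed sign, none of which had passed with 12 or with 6 arrays: Bcl2l11 (0.0645 with the mean over probe sets, 0.13 with the actin covariate, 0.15 without both arrays, and -0.157 to 0.0558 without 1 array), Foxo3 (0.23 with the actin covariate, 0.26 without both arrays, and -0.199 to 0.10 without 1 array) and Cdk1 (-0.0774 without both arrays).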

Other observations

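Some genes of antigen presentation and interferon response that the lists held also differed. Cd74, the invariant chain of MHC class II, read 12.08, 12.37 and 11.77 with T24P alone and 12.70, 12.80 and 12.97 with wild type alone. It fell by 0.75 (SE 0.15) in the fit on 6 arrays, where 1 of 20 genes of antigen presentation passed (3.43% of all genes did). Psmb9, a subunit of the immunoproteasome, gave 0.56 (SE 0.13) and did not pass. Of 19 interferon response genes only Isg20, an antiviral exonuclease, passed with 6 arrays (3.43% of all genes did). It read 9.59, 10.08 and 9.70 against 9.06, 8.94 and 9.04, a rise of 0.77 (SE 0.13), and gave 0.75 without wt+/mt- replicates 1 and 2.

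Genes known from other lymphoid or myeloid cells were read in these arrays as well. Eomes, a T-box factor of cytotoxic lymphocytes, was bright at 11.10, 11.27 and 11.13 with T24P alone and 11.76, 11.61 and 11.57 with wild type alone, and fell by 0.48 (SE 0.10) in the fit on 6 arrays, with its other bright probe set at -0.43. Zap70, a kinase of the T cell receptor, was at 8.70, 8.57 and 8.46 against 9.14, 9.13 and 8.96 and fell by 0.50 (SE 0.10). Cd68, a lysosomal protein of macrophages, fell by 1.45 (SE 0.29), and Ccr2, a chemokine receptor of monocytes, rose by 0.51 (SE 0.09), both dim. Of the T cell markers, Cd3d, Cd3g, Cd2 and Thy1 lay below the array median on all 6 arrays and Cd3e, Cd4, Cd8a and Zap70 above it on all 6. Of the NK cell markers, Ncr1 and Gzma lay below it on all 6 arrays, Prf1 above it on 5 and Eomes above it on all 6. By array, the mean level of the 8 T cell markers was 5.96 to 6.03 with T24P alone and 6.14 to 6.19 with wild type alone, and that of the 4 NK cell markers 6.86 to 6.95 and 6.99 to 7.08. The part of such transcripts in the results was not tested. No stromal gene of 6 and no erythroid gene of 3 passed with 12 or with 6 arrays.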
